A study of Homo sapiens with 6 samples.

Results

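The genes described here build the spindle midzone, close the cleavage furrow and organise spindle microtubules. They are PRC1, ANLN, ECT2, RACGAP1, CIT, CEP55, NUSAP1, ASPM, DLGAP5 and CKAP5, taken by name as all probe sets whose only gene symbol is one of these 10. That gave 26 probe sets of 49293 that are not array controls, and 10 genes of 18132 with at least 1 probe set of their own. A probe set is a group of short oligonucleotides read out as a single intensity, called signal below. Expression was measured on 6 Affymetrix arrays in 786-O, an established human renal cell carcinoma line without functional VHL. The 3 arrays labelled shNC are the controls, and the 3 labelled shERCC6L carry a lentiviral short hairpin RNA against ERCC6L. The labels describe neither the control construct nor the number of hairpins. Both groups were grown in the same medium, and the study rests on 1 cell line. Whether the 3 replicates of a group are separate cultures is not stated, so the p-values below cover the spread between these arrays, and that spread may be technical.

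When chromosomes separate, antiparallel microtubules between them are bundled into the midzone by the crosslinker PRC1 and by centralspindlin, of which RACGAP1 is a subunit. Centralspindlin recruits ECT2, which activates the GTPase RhoA, and RhoA drives an actomyosin ring that anillin (ANLN) and citron kinase (CIT) hold in place. CEP55 then brings the membrane-cutting ESCRT machinery to the midbody. ERCC6L, also called PICH, acts in the same phase as a translocase on the DNA threads that still link sister chromatids.

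The hairpin lowered its target. ERCC6L had 1 probe set, whose signal was 239.9, 244.3 and 261.4 in the controls and 97.59, 97.49 and 97.83 after knockdown. That left 39.3% of the control mean signal. In log2(signal + 16), where the added 16 makes the fall smaller, the log2 fold change was -1.22 ± 0.04 (SE, limma adjusted p = 4.6e-07). Log2 values correlated at 0.9986 to 0.999 within groups and 0.9931 to 0.9938 across them, and no array stood apart. The array medians of signal lay between 60.04 and 61.56. Of 8 renal carcinoma markers all were above the array medians, with VIM, PAX8 and PAX2 among them. They summed to a signal of 23940 to 24300 in the controls and 22630 to 23260 after knockdown. Most of that sum was VIM, with group means of 14930 and 14880. The largest fall in signal was that of NNMT, from 3049 to 1922. Past the threshold 2 were higher (PAX8 and KRT18) and 3 lower (NNMT, CDH6 and EPAS1). Of 4 leukocyte markers, 1 (CD68) was higher, and the sum lay at 165.7 to 185.9 in the controls and 195.2 to 204 after knockdown. The defining leukocyte marker PTPRC lay near the floor, with group means of 7.313 and 7.207. CD68 lay above the array medians, at 127.4 and 152.1. Of 4 endothelial markers 0 passed in limma, also with 0 at an unadjusted p under 0.05, with sums of 208 to 217.5 and 203.3 to 211.4. Among them VWF lay above the array medians, with group means of 83.69 and 84.63. The other leukocyte and endothelial markers had group means below those medians. The part of these shifts in the members' values was not tested.

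Many genes of late mitosis share promoter elements: the cell cycle genes homology region (CHR), bound by the DREAM and MuvB complexes, and the CCAAT box, bound by NF-Y. RefSeq promoter windows (GRCh38.p14, 250 bases before to 50 after the annotated start) were matched for 9 of the 10 genes, ECT2 with a pair of windows that overlap at their ends and share 1 match. RACGAP1 was not matched. The 150 bases before the start are shown for the 3 genes whose brightest probe set rose most among the matched ones and for ASPM, which fell. Capitals mark each full match to the CHR core TTTGAA or to CCAAT. A match on the opposite strand reads TTCAAA or, for the other motif, ATTGG. The stretches are chr15:90994536-90994685 on the minus strand for PRC1, chr14:55191586-55191735 on the minus strand for DLGAP5, chr10:93496462-93496611 on the plus strand for CEP55 and chr1:197146670-197146819 on the minus strand for ASPM, each printed 5′ to 3′ along the gene.
PRC1: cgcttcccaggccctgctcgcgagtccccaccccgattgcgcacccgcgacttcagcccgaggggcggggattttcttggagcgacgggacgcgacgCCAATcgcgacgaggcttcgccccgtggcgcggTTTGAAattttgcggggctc
DLGAP5: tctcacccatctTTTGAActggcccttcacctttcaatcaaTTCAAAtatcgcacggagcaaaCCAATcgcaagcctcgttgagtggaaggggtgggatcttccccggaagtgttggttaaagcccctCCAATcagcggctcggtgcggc
CEP55: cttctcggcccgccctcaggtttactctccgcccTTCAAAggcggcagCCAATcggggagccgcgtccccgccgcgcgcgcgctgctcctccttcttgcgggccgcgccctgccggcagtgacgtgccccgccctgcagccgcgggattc
ASPM: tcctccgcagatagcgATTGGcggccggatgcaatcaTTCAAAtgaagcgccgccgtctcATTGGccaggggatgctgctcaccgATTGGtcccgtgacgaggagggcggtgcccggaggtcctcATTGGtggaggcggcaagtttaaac

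All 10 windows of the 9 genes held TTTGAA on either strand, against 15.2% of all 35116 windows of this length. The variant TTCGAA, also read as a CHR core, was in 0 of the 10 and in 1.45% of all. CCAAT was in 8 of the 10 windows, against 34.6% of all. No match overlapped another. In PRC1 and ANLN a TTTGAA began 20 bases before the start, and ANLN also carried it on the opposite strand in the 6 bases just before, without a CCAAT box. ASPM, the gene that fell, held 1 TTTGAA and 4 CCAAT boxes. A match is a description of sequence and not evidence of binding.

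**Figure D1:**
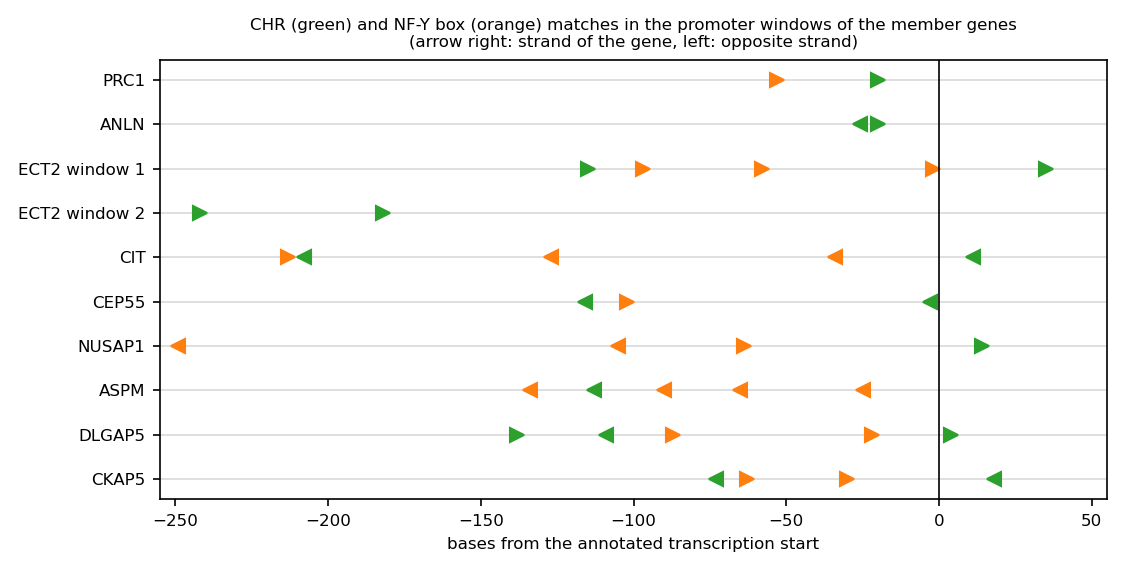
Matches to the CHR core (green) and to the NF-Y box (orange) in the RefSeq promoter windows of 9 genes, 1 row for each of 10 windows; the x axis gives the position of the leftmost base in bases from the annotated transcription start, and the arrows give the strand. Every row holds at least 1 green arrow. PRC1 has 1, at 20 bases before the start, and ANLN has 2, at 26 and 20 bases before it.

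After ERCC6L knockdown PRC1, DLGAP5, CEP55, CIT and CKAP5 were slightly higher on their brightest probe sets, and ASPM was lower. Of the 26 probe sets, 13 passed as higher and 2 as lower (limma with Benjamini-Hochberg adjustment over all probe sets, threshold 0.05), where 16.8% and 11.9% of all probe sets passed. The signals of the groups did not overlap for 16 probe sets that were higher and 2 that were lower, against 22.3% and 18.7% of all probe sets. Of the 26, 24 lay above the median level of all probe sets, and these shares were not counted over bright probe sets alone. Calls were more common among brighter genes, as given below. The fold change was above 0 for 24 of the 26 and below 0 for the 2 ASPM probe sets. Over all probe sets the median log2 fold change was -0.006. At least 1 probe set rose for 7 genes, PRC1, ANLN, ECT2, CIT, CEP55, DLGAP5 and CKAP5. Both ASPM probe sets fell, and no probe set passed for RACGAP1 and NUSAP1. The count of 7 takes any of a gene's 2 to 4 probe sets, and its share over all genes was not counted. The changes were small: the called rises ran from 0.16 to 0.39 in log2(signal + 16), the scale of every log2 fold change below, which is given as shERCC6L over shNC. In these bulk samples, fewer cells of a type and less RNA per cell cannot be told apart.

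Taken 1 probe set a gene, the one with the highest mean over all arrays, 5 of the 10 genes were higher and 1 was lower, with a median log2 fold change of 0.16. Over all 18132 genes 18.2% were higher and 13.4% lower, with a median of -0.01. All 10 lay at or above the median level of all genes, where 32.8% were higher and 19.6% lower and the median was 0.04. With each gene's probe sets averaged instead, 7 were higher and 1 lower: ANLN, ECT2 and RACGAP1 then passed (adjusted p = 0.0046, 0.01 and 0.035), and CEP55 did not (0.13, adjusted p = 0.064). Calls over all 18132 genes were also more numerous with averaging, at 3603 higher and 2577 lower against 3302 and 2431.

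**Figure D2:**
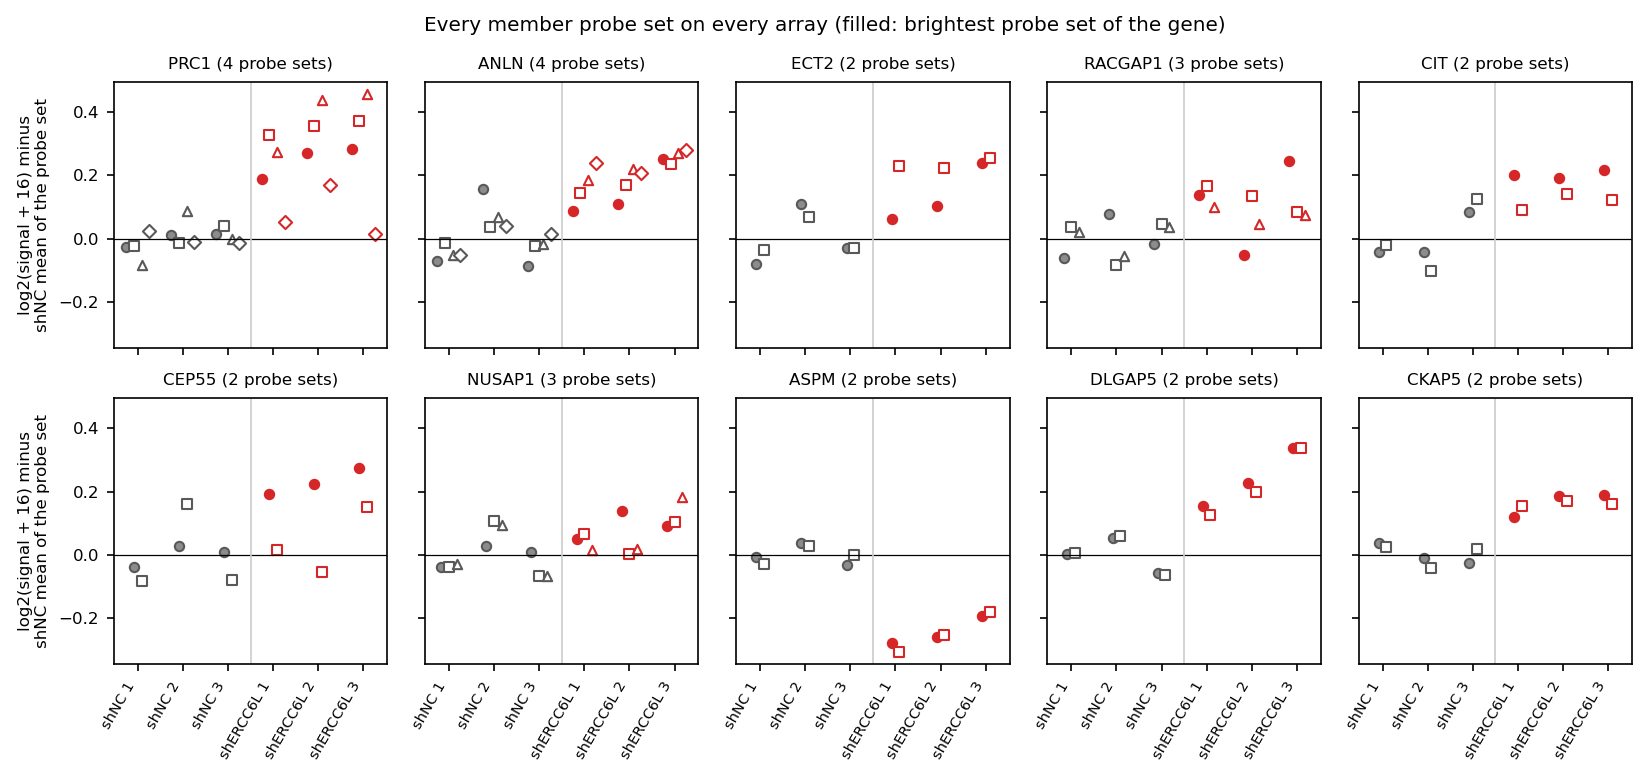
Each point is 1 probe set on 1 array, as log2(signal + 16) minus the shNC mean of that probe set, with shNC arrays in grey and shERCC6L arrays in red; panels are genes, symbols are probe sets and the filled symbol is the brightest. The red points lie above 0 for most genes and below 0 for ASPM, and the groups overlap for 8 of the 26 probe sets.

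PRC1, which crosslinks antiparallel microtubules, rose most. Its brightest probe set, 11716358_s_at, had signals of 2245, 2306 and 2311 in shNC and 2606, 2760 and 2788 in shERCC6L. Every shERCC6L array was above every shNC array. It rose 1.19-fold, or by 0.25 ± 0.04 in log2 (SE from limma over n = 3 per group, adjusted p = 0.0013). Errors of log2 fold changes below are of the same kind. The 11750824_a_at probe set read 658.6, 663.6 and 689 in shNC and 845.7, 861.5 and 871 in shERCC6L, a log2 fold change of 0.35 ± 0.03 (adjusted p = 1e-04). The 11747713_a_at probe set went from 330.7 ± 20.7 to 438.6 ± 31.4 (SD, n = 3 per group), the widest change among the 26, at 0.39 ± 0.06 (adjusted p = 0.0014). These 3 probe sets agreed in direction with no overlap between groups. The fourth, 11761011_at, was dim, below the median signal of all probe sets, at 43.46 ± 0.89 and 46.8 ± 3.56, and its groups overlapped (log2 fold change 0.08, 95% interval -0.03 to 0.18, adjusted p = 0.26).

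RACGAP1, the GTPase-activating subunit of centralspindlin, did not pass on any of its 3 probe sets. The brightest read 689, 759.4 and 711 in shNC and 792.8, 692.7 and 855.9 in shERCC6L. The second shERCC6L array lay among the controls, so the groups overlapped. The log2 fold change was 0.11 (95% interval -0.06 to 0.28, adjusted p = 0.33), and without shERCC6L replicate 2 it was 0.19 and passed (adjusted p = 0.044). On 11723583_a_at the shNC arrays read 403, 369.6 and 405 and the shERCC6L arrays 441.9, 432.4 and 416.7. Here the groups did not overlap, at 0.13 ± 0.04 with an adjusted p of 0.062, and the call passed with median centring (adjusted p = 0.033) and with an intensity trend and robust estimation (adjusted p = 0.04). On the third probe set, 11723584_x_at, the groups did not overlap either, at 316.7 ± 11.2 and 334 ± 6.43, a log2 fold change of 0.07 (95% interval -0.01 to 0.16).

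ECT2, the exchange factor that loads RhoA at the cell equator, rose on 1 of its 2 probe sets. On 11745834_a_at the shNC arrays read 354, 381.2 and 355.1 and the shERCC6L arrays 428.4, 427 and 436.2. The shERCC6L arrays were close together and all above the controls (log2 fold change 0.24 ± 0.04, adjusted p = 0.0018). The brighter 11745833_s_at read 1202, 1372 and 1244 in shNC and 1326, 1365 and 1502 in shERCC6L. The second control lay above both of the lower shERCC6L arrays, and the change of 0.13 (95% interval -0.01 to 0.27) did not pass (adjusted p = 0.15). Without shNC replicate 2 it was 0.19 and passed (adjusted p = 0.047).

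ANLN, the scaffold that ties actin, myosin and septins to the furrow membrane, rose on 3 of its 4 probe sets. On 11724465_a_at it read 899, 959.7 and 942.8 in shNC and 1104, 1080 and 1137 in shERCC6L. The groups were well separated, at 0.24 ± 0.04 (adjusted p = 0.0016). The rises on 11744787_a_at and 11724466_x_at were 0.23 and 0.18 (adjusted p = 0.0041 and 0.0065), also without overlap. The brightest probe set, 11724464_a_at, read 2174, 2550 and 2150 in shNC and 2425, 2467 and 2721 in shERCC6L. Its second control was higher than 2 of the shERCC6L arrays, and the change of 0.15 (95% interval -0.01 to 0.31) did not pass (adjusted p = 0.17). Without shNC replicate 2 it was 0.23 and passed (adjusted p = 0.019).

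CIT, the kinase that keeps the midbody in order, rose on the brighter of its 2 probe sets. That one, 11744436_a_at, read 273.7, 273.8 and 299.7 in shNC and 327, 324.6 and 330.3 in shERCC6L. The groups did not overlap, and the log2 fold change was 0.20 ± 0.04 (adjusted p = 0.0061). The other, 11752591_a_at, was very dim, at 16.54 ± 2.63 and 19.24 ± 0.615, a level near the added 16, at which fold changes are compressed. It changed by 0.12 (adjusted p = 0.16), or by 0.18 without shNC replicate 3, where it passed (adjusted p = 0.02).

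CEP55, which recruits ALIX and TSG101 to the midbody, passed on the brighter of its 2 probe sets. The brighter one, 11758261_s_at, read 1291, 1352 and 1333 in shNC and 1517, 1551 and 1608 in shERCC6L. All 3 shERCC6L arrays were higher, at 0.23 ± 0.04 (adjusted p = 0.0017). On 11720247_a_at the values were 791.5, 939 and 793.5 in shNC and 847.7, 806.4 and 933.2 in shERCC6L. The highest value of all was a control, and the change of 0.04 (95% interval -0.14 to 0.21) did not pass (adjusted p = 0.78).

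The other 4 genes act on the spindle itself. NUSAP1, which binds and bundles microtubules near chromosomes, did not pass on any of 3 probe sets. Its brightest read 1089, 1139 and 1126 in shNC and 1158, 1233 and 1192 in shERCC6L. The groups did not overlap, but the log2 fold change of 0.09 (95% interval 0.01 to 0.18) had an adjusted p of 0.1. In the fit over genes it passed with an intensity trend and robust estimation (adjusted p = 0.046) and in no other alternative. The 2 others changed by 0.06 and 0.07 with overlapping groups.

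DLGAP5, also known as HURP, which stabilises kinetochore fibres, rose on both probe sets. The brighter read 832.7, 862.8 and 797.9 in shNC and 926.3, 974.6 and 1054 in shERCC6L. The groups did not overlap, although the shERCC6L arrays were spread more widely than the controls (0.24 ± 0.05, adjusted p = 0.0084). The second, 11722367_a_at, rose by 0.22 ± 0.06 (adjusted p = 0.02), a call that was lost without shNC replicate 1 (adjusted p = 0.05 as rounded, log2 fold change 0.22) and without shNC replicate 3 (adjusted p = 0.072, 0.19).

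CKAP5, or chTOG, a microtubule polymerase at spindle poles and kinetochores, rose on both probe sets by nearly the same amount. The brighter read 788.2, 762.2 and 753.8 in shNC and 836.2, 876.2 and 877.8 in shERCC6L. No control reached the lowest shERCC6L array. The log2 fold changes were 0.17 ± 0.04 and 0.16 ± 0.03 (adjusted p = 0.0085 and 0.0065), and the second probe set went from 499.3 ± 12.9 to 560.2 ± 3.26 (SD, n = 3 per group).

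ASPM, which focuses microtubule minus ends at the poles and whose loss causes microcephaly, was the member that fell. Its brighter probe set, 11748713_a_at, read 986.4, 1016 and 969.3 in shNC and 813.2, 825.3 and 863.4 in shERCC6L. Every shERCC6L array lay below every control. The second, 11742832_a_at, read 694.4, 723.7 and 708.6 in shNC and 569.5, 592.3 and 623.2 in shERCC6L, again without overlap. The log2 fold changes were -0.24 ± 0.04 (adjusted p = 0.0013) and -0.25 ± 0.04 (adjusted p = 0.002), or 1.18-fold and 1.19-fold lower. In all 13 alternatives run on probe sets both passed as lower, between -0.28 and -0.22.

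**Figure D3:**
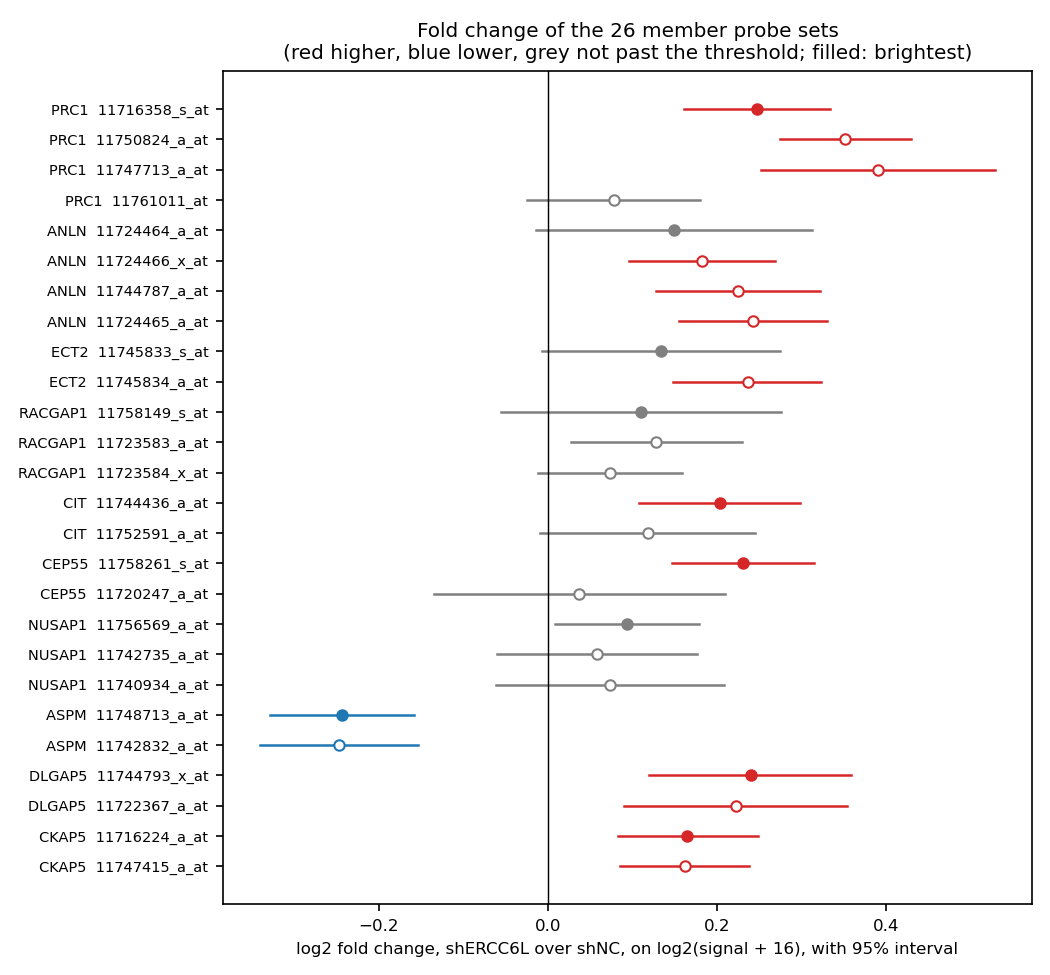
Log2 fold change of each of the 26 probe sets (shERCC6L over shNC on log2(signal + 16)) with its 95% interval; red passed as higher, blue as lower, grey did not pass, and filled circles are the brightest probe set of each gene. The 2 ASPM probe sets lie at -0.24 and -0.25, and the other 24 lie above 0, up to 0.39 for PRC1.

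Probe sets of 1 gene differed in whether they passed, so the difference in fold change from the gene's brightest probe set was tested in limma over all 26856 such pairs on the array. Of the 16 pairs of these genes 0 passed, where 10.4% of all pairs did, and the lowest adjusted p was 0.11. Their differences ran from -0.194 to 0.143 in log2. In simulated data 16% of pair differences of 0.25 passed. There 144 of 26856 pairs were called, against 2794 here, so that share need not hold for these arrays. The result of 0 of 16 does not show that probe sets changed alike. At an unadjusted p under 0.05 there were 4 pairs, those of the second CEP55 probe set and of every PRC1 probe set other than its brightest. The 95% interval held 0 for the other 12. For the second CEP55 probe set the difference was -0.19 (95% interval -0.35 to -0.04, adjusted p = 0.13). For PRC1 it was 0.14 on 11747713_a_at (95% interval 0.02 to 0.27, adjusted p = 0.15) and 0.10 on 11750824_a_at (95% interval 0.002 to 0.207, adjusted p = 0.21). On the dim 11761011_at of PRC1 it was -0.17 (95% interval -0.30 to -0.04), with the lowest adjusted p of 0.11. The other ASPM and CKAP5 probe sets lay within 0.01 of the brightest, with 95% intervals of -0.10 to 0.10 and -0.11 to 0.10. With a pseudocount of 64, which compresses dim signals further, 2 pairs passed, those of the dim PRC1 and CIT probe sets (adjusted p = 0.015 and 0.019).

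The arrays did not contribute evenly. Among the shNC arrays replicate 2 was highest for 17 of the 26 probe sets, and among the shERCC6L arrays replicate 3 was highest for 20, where they were highest for 29.8% and 36.1% of all probe sets. The brightest probe sets of ANLN and ECT2 and the second of CEP55 were high on both of these arrays. ASPM, too, was highest on them within each group, although it fell between groups. Without shNC replicate 2 the rises numbered 15 of 26, and without shERCC6L replicate 3 they numbered 13.

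The other genes of the pathway were grouped by role, with 1 probe set a gene. Among 12 midzone kinesins and passenger complex genes, 9 were higher and 2 lower, with a median log2 fold change of 0.26. BIRC5 (survivin) went from 1549 ± 42.4 to 2454 ± 9.67 (SD, n = 3 per group), a rise of 0.66 ± 0.03 (0.41 with its probe sets averaged), and KIF14, a kinesin that binds PRC1 and citron kinase, rose by 0.38 ± 0.05. KIF23, the partner of RACGAP1 in centralspindlin, rose by 0.34 (0.235 with its probe sets averaged), and the PRC1 partner KIF4A by 0.22. CLASP2, a microtubule plus-end protein, fell by 0.37, or by 0.15 with its 9 probe sets averaged. KIF20A, which carries the passenger complex to the midzone, fell by 0.12 (adjusted p = 0.031), a call lost with a replicate block (adjusted p = 0.055), with a pseudocount of 1 (adjusted p = 0.068) and, among the omissions of single arrays, in all but those of shNC replicate 2 and shERCC6L replicate 2 (adjusted p = 0.069 to 0.1 where lost).

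Among 18 contractile ring and septin genes, 4 were higher, 1 was lower and 13 did not pass, with a median of 0.07. The septin genes SEPTIN2 and SEPTIN8 rose by 0.49 ± 0.03 and 0.39 ± 0.03 (0.24 for SEPTIN8 with its probe sets averaged), and SEPTIN2 signal went from 3443 ± 25.7 to 4839 ± 85.5. The formin gene DIAPH3 fell by 0.24 ± 0.04, or by 0.11 with its probe sets averaged. RHOA, at 0.04, and the myosin genes MYH9 and MYH10, at 0.07 and 0.10, did not pass, although both myosin genes did with probe sets averaged (adjusted p = 0.048 and 0.0014). With quantile normalization 2 genes of this list were higher.

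Among 17 abscission and ESCRT genes, 8 were higher and 1 lower, with a median of 0.10 (0.06 with quantile normalization). CHMP2B and CHMP7, ESCRT-III subunits, rose by 0.56 ± 0.06 and 0.39 ± 0.05 (0.388 for CHMP2B with its probe sets averaged). The subunit CHMP2A fell by 0.18 ± 0.04. TSG101, which CEP55 binds, was at 0.10 and did not pass (adjusted p = 0.057), but passed with probe sets averaged (adjusted p = 0.01). Among 25 spindle pole and microtubule genes, 15 were higher and 1 lower, with a median of 0.23. AURKA, a kinase of spindle poles, rose by 0.57 and the minus-end motor gene KIFC1 by 0.47, the CKAP5 partner TACC3 rose by 0.35, and HMMR, a spindle protein that binds hyaluronan, fell from 1907 ± 17.7 to 1252 ± 21, by 0.60.

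Markers of cell cycle phase were counted in the same way, against the 18.2% higher and 13.4% lower of all genes. Every marker lay at or above the median level of all genes, where 32.8% were higher and 19.6% lower. Of 14 G2 and M phase markers 9 were higher and 1 lower, with a median of 0.28. MKI67 and CDC20 rose by 0.48 and 0.47 (0.15 and 0.30 with their probe sets averaged), and FOXM1, a transcription factor of this phase, fell by 0.39. Of 14 S phase markers 6 were higher, 1 was lower and 7 did not pass, with a median of 0.05, near the 0.04 of the brighter genes given above. That median was 0.015 without shERCC6L replicate 3 and 0.105 with probe sets averaged. RRM2 and FEN1 rose by 0.38 and 0.36, and TYMS fell by 0.23. By array, the median over the G2 and M markers relative to the shNC mean was 0.24, 0.28 and 0.28 on the shERCC6L arrays, over the S phase markers it was -0.005, 0.04 and 0.12, and over the 10 member genes it was 0.13, 0.16 and 0.24. The S phase and member medians were highest on shERCC6L replicate 3, while the G2 and M median was equal on replicates 2 and 3. On the shNC arrays those medians lay between -0.04 and 0.03. The part of cell cycle phase in the members' change was not tested.

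**Figure D4:**
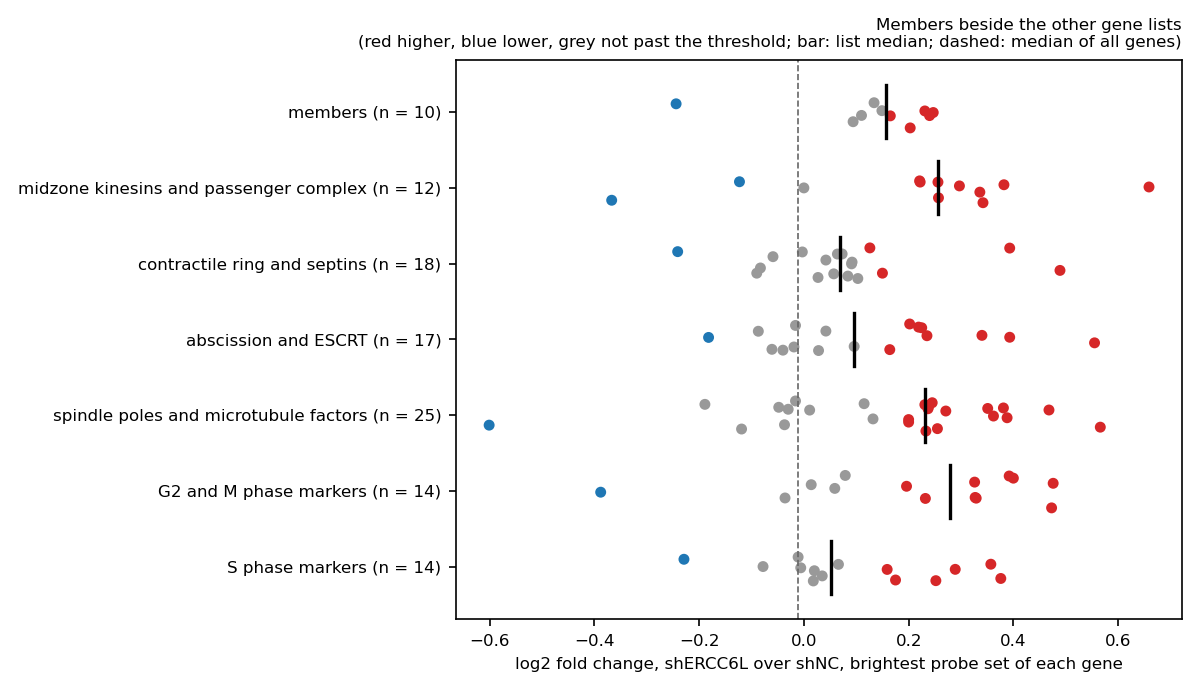
Log2 fold change (shERCC6L over shNC, brightest probe set of each gene) of the 10 member genes and of 6 other gene lists, 1 point a gene; bars are list medians, the dashed line is the median of all genes at -0.01, and colours give the call. The member median is 0.16, between those of the S phase markers at 0.05 and of the G2 and M markers at 0.28.

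In the promoter windows of these lists TTTGAA was found in 9 of 14 for the midzone list, 10 of 25 for spindle poles and 9 of 21 for the G2 and M markers. It was found in 1 of 37 windows for the contractile ring list, 1 of 16 for abscission and 2 of 15 for the S phase markers. CCAAT was found in 13 of 14 windows for the midzone list and 16 of 21 for the G2 and M markers. For the S phase markers it was in 11 of 15, beside 8 of 10 for the members. Lower shares were 10 of 25 for spindle poles, 14 of 37 for the contractile ring list and 6 of 16 for abscission. No test was run on these shares.

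For each member gene the gene with the nearest profile over the 6 arrays was looked up among 9065 others at or above the median level, by the root mean square distance between log2 values taken relative to their shNC means. The closest match was ASXL2 to CEP55, at 0.0078. ASPM was matched by NDUFV2 at 0.0127, PRC1 by BTN2A1 at 0.0113, CKAP5 by IL1R2 at 0.0118, and the remaining distances ran from 0.0139 (NUSAP1 with SPINDOC) to 0.0218 (ANLN with MON1B). No member was the nearest to another.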

How the data were processed

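RNA intensities per probe set, on a linear scale, were deposited by the authors, who used Affymetrix Expression Console, per the submitters' processing notes. How that tool corrected background, normalized and summarized, and in which version, is not given in the sources used here. Array medians were already nearly equal. The table analysed here has no detection calls. With 3 arrays a group, their number limits precision. Probe sets were named through GEO's platform annotation, and 44961 of 44988 with 1 symbol matched RefSeq by gene number. Intensities were transformed to log2(signal + 16) and tested 2-sided in R 4.3.3 by limma 3.58.1 (lmFit with eBayes, no block and no filter), once over all 49293 probe sets, once over 18132 genes by the probe set with the highest mean, and once over 26856 differences from that probe set, each with Benjamini-Hochberg adjustment. The scripts were tested on simulated data. Members and lists were chosen with earlier results of these data known. Named genes are ERCC6L, all members, the 2 largest rises and falls past the threshold in each of 6 lists, and each member's nearest profile; KIF23, KIF4A, RHOA, MYH9, MYH10, TSG101, TACC3 and the marker genes of other cell types or kidney were added after their values were seen. Some genes of the lists were not analysed here. There were 14 alternatives: quantile normalization, a replicate block, centring on medians, dropping the dimmest 25% of probe sets, pseudocounts of 1 and 64, an intensity trend with robust estimation, averaged probe sets and leaving out each array.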

Additional observations from a re-analysis of the deposited data

How the results depend on the processing

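No result past the threshold changed sign. Among those that did not pass, the log2 fold change of the second CEP55 probe set ran from -0.02 to 0.117 as each array was left out and was 0 as rounded with quantile normalization. The sign also changed for 8 differences from the brightest probe set. As each array was left out they ran from -0.105 to 0.03 (RACGAP1 11723584_x_at), -0.067 to 0.108 (RACGAP1 11723583_a_at), -0.027 to 0.065 (ANLN 11724466_x_at), -0.075 to 0.014 (NUSAP1 11742735_a_at), -0.077 to 0.03 (NUSAP1 11740934_a_at), -0.022 to 0.018 (CKAP5) and -0.015 to 0.012 (ASPM, with 0.002 at a pseudocount of 64), and that of the dim CIT probe set was 0.003 at a pseudocount of 1. Member counts stayed within 1.5 times under every alternative: 12 to 15 probe sets were higher and 2 lower, and 5 to 7 genes were higher and 1 lower. With a replicate block they were 13, 2, 5 and 1. Deviations of same-numbered arrays from their group means correlated at 0.22, -0.15 and -0.03, without a common sign. They were not treated as pairs in the main fit. Arrays of different numbers were not compared in this way, so a batch shared by such arrays was not tested. Of the 15 member probe sets past the threshold, 14 passed in every alternative run on probe sets, the second DLGAP5 probe set being the exception. The member median ran from 0.126 to 0.186. Pairs of probe sets past the threshold numbered 2 with a pseudocount of 64 and 0 otherwise. In the other lists the median moved by more than 1.5 times for S phase markers (0.015 to 0.105) and for abscission genes (0.058 with quantile normalization), as did some counts. Midzone genes that were lower numbered 1 with a replicate block or a pseudocount of 1, and 1 to 2 as each array was left out. Spindle pole genes that were lower numbered 2 with quantile normalization or with an intensity trend and robust estimation, and 1 to 2 as each array was left out. With quantile normalization 2 contractile ring genes were higher and 2 S phase markers lower. With probe sets averaged 2 abscission genes were lower. The cause was not tested. Dim probe sets show compressed fold changes, such as that of CIT, whose signal lay near the added 16. With a pseudocount of 1 its log2 fold change was 0.216 (limma adjusted p = 0.15). That of the dim PRC1 probe set, with group means of 43.46 and 46.8, was 0.102 (limma adjusted p = 0.27).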
